A study of Danio rerio with 6 samples.

Results

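The miR-183 cluster is a group of 3 microRNA hairpins, mir-183, mir-96 and mir-182, known across vertebrates for its activity in sensory organs. Its members were taken here as every row of the deposited microRNA table named miR-182-5p, miR-183-5p or miR-96-5p. All 3 were present, among 134 mature microRNAs in all, and no row named another arm of these hairpins. They were read in primordial germ cells, the embryonic precursors of eggs and sperm, from zebrafish of the AB strain. The cells had been picked out by their green fluorescence, and the labels name neither the transgene or dye behind it nor any treatment. The 3 groups were cells of embryos at 6 hours post fertilization (hpf, shield stage), 11 hpf (an early somite stage) and 24 hpf (the prim stage), with 2 libraries each. The question addressed was how the small RNA content of these cells differed between the stages.

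MicroRNAs are short RNAs that pair with messenger RNAs, mainly through bases 2 to 8 from their 5′ end, the seed, and lower the output of those messages. The members of the miR-183 cluster are transcribed together. In vertebrates they are abundant in hair cells of the ear, in photoreceptors and in other sensory cells. Changes in the seed of miR-96 cause hearing loss in humans and mice, and in zebrafish altered levels of miR-96 or miR-182 change the number of hair cells in the inner ear.

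The mature sequences, as deposited in DNA letters, are shown because the seeds define which messages each member can pair with. Capitals mark the seed.
miR-183-5p: tATGGCACtggtagaattcactg
miR-182-5p: tTTGGCAAtggtagaactcaca
miR-96-5p: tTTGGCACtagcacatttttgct

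The 3 seeds were similar but not identical. Of the 7 seed letters, 6 were identical between miR-96-5p and each of the others, and 5 between miR-183-5p and miR-182-5p. No other row of the table had any of the 3 seeds. Over the full length, seed included, miR-183-5p and miR-182-5p were the closest pair. They had the same letter at 18 of 22 positions and shared the run tggtagaa, which starts at base 9 in both. miR-96-5p matched miR-183-5p at 13 of 23 positions and miR-182-5p at 12 of 22. The edit distances within the cluster were 5, 9 and 10, and the nearest row outside it lay 8 or more edits from any member. In the RefSeq annotation of the GRCz12tu assembly, mir-183, mir-96 and mir-182 follow each other in this order with no other gene between them. The next annotated gene after mir-182 is nrf1, which encodes a transcription factor.

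The libraries held 35718 to 78973 microRNA reads. Most came from the miR-430 family, which clears maternal messages in the early embryo, and the reads outside that family numbered 4429 and 6008 at 6 hpf, 8983 and 7404 at 11 hpf, and 17602 and 27293 at 24 hpf. A member's level is given as its share of these reads outside the miR-430 family, since the family's own share differed between stages. A count of 0 then allowed a share of up to 0.0677% and 0.0499% at 6 hpf, 0.0334% and 0.0405% at 11 hpf, and 0.017% and 0.011% at 24 hpf with a floor of 3 reads. PCR copies are not separate molecules, so these floors and the exact 95% intervals (Clopper-Pearson) cover counting error only. At 24 hpf 16 microRNAs with at least 10 reads in replicate 1 had 0 in replicate 2, and 7 had the opposite, so a 0 can exceed counting error. The labels do not tell whether the 2 libraries per stage were separate collections. The p-values set the difference between stages against the spread between libraries, which may thus be technical only.

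Summed over its members, the cluster was at the detection floor at 6 hpf and well above it at 24 hpf. It had 1 and 2 reads at 6 hpf, 43 and 7 at 11 hpf, and 175 and 323 at 24 hpf. The shares were 0.0226% and 0.0333% at 6 hpf, 0.479% and 0.0945% at 11 hpf, and 0.994% and 1.18% at 24 hpf. In these shares no library overlapped with another stage, and those of 11 hpf lay furthest apart, 5.06-fold. The counting interval of 11 hpf replicate 2, 0.038% to 0.195%, overlapped those of 6 hpf replicates 1 and 2, 0.000572% to 0.126% and 0.00403% to 0.12%. Of the 69 microRNAs tested, 31.9%, 26.1% and 18.8% had both later libraries above both earlier ones in normalised reads. These values are for 24 against 6, 24 against 11 and 11 against 6 hpf. The mean share was 0.0279% ± 0.00757 (SD, n = 2) at 6 hpf. It was 0.287% ± 0.272 (SD, n = 2) in the 11 hpf libraries and 1.09% ± 0.134 (SD, n = 2) in those of 24 hpf. With 2 libraries per stage these SDs cannot tell whether the stages differ. The ratio of the means between 24 and 11 hpf was 3.8, from 2.27 to 11.5 with a library left out. Between 11 and 6 hpf it was 10.3, from 3.38 to 17.1. The sum is a description and was not tested.

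**Figure D1:**
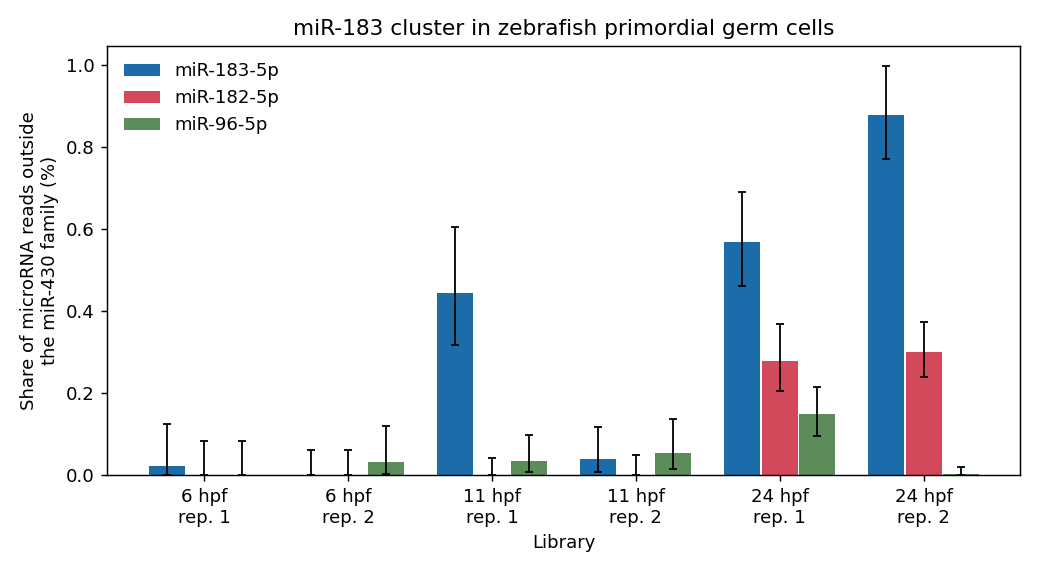
Share of microRNA reads outside the miR-430 family (%, y axis) taken by miR-183-5p, miR-182-5p and miR-96-5p in each of the 6 libraries (x axis). Bars are single libraries and error bars exact 95% intervals for counting error. miR-182-5p appears at 24 hpf in both libraries, miR-183-5p is also high in 11 hpf replicate 1, and miR-96-5p is raised in 24 hpf replicate 1 alone.

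miR-183-5p, which gives the cluster its name, was its most abundant member at 24 hpf. It had 1 and 0 reads at 6 hpf, 40 and 3 at 11 hpf, and 100 and 240 at 24 hpf. Its shares outside the miR-430 family were 0.0226% and 0 at 6 hpf, 0.445% and 0.0405% at 11 hpf, and 0.568% and 0.879% at 24 hpf. The first 11 hpf library thus lay close to the lower 24 hpf library, with intervals of 0.318% to 0.606% and 0.462% to 0.691%, while the other lay inside the interval of 6 hpf replicate 1, 0.000572% to 0.126%. At 24 hpf it was the 24th and the 15th most abundant microRNA outside the miR-430 family in replicates 1 and 2. The deposited RPM values, which are relative to a larger library total, placed the libraries in the same order of stages, with 8.54 and 11.3 RPM at 24 hpf against 2.8 and 0.333 at 11 hpf and 0.0954 and 0 at 6 hpf.

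Pooled over the libraries of a stage, the share of miR-183-5p outside the miR-430 family at 24 hpf stood to that at 6 hpf in a ratio of 79 (95% counting interval 14.1 to 3131), which rests on 1 read at 6 hpf. The ratio depended on the scaling, with 101 (18 to 3998) for reads scaled by TMM, edgeR's composition factor, and 233 (41.6 to 9242) over the authors' totals. The 24 hpf libraries both exceeded the 6 hpf ones, as did those of 31.9% of the 69 microRNAs tested. The difference did not pass the test (edgeR quasi-likelihood, adjusted p = 0.0897). It passed with DESeq2 (adjusted p = 0.00424), which called 16 of all microRNAs tested, in either direction, against 12 in edgeR. It also passed when either 11 hpf library was left out of the shared estimate of spread, where calls over all microRNAs rose as well. It did not pass when a 6 hpf or a 24 hpf library was left out. miR-183-5p was kept by the filter on low counts only through its 24 hpf reads, since before that 11 hpf replicate 1 alone had 10 or more. Without that filter it did not pass (edgeR adjusted p = 0.118). Between 24 and 11 hpf the log2 difference was 1.81 (SE 1.42, edgeR adjusted p = 0.569). Each 24 hpf library lay above each 11 hpf one, as for 26.1% of those tested. Without 11 hpf replicate 1 its adjusted p was 0.147 in edgeR. Between 11 and 6 hpf the ratio of pooled shares was 27.4 (95% counting interval 4.66 to 1107, edgeR adjusted p = 0.463), and 18.8% of the microRNAs tested had each 11 hpf library above each 6 hpf one, while 1.45% passed with a higher level at 11 hpf. By mean share the 3 stages stood in the order 6, 11 and 24 hpf, and no pair of stages passed in this test. The place of 11 hpf above 6 hpf rests mainly on 11 hpf replicate 1, since replicate 2 had 3 reads, a count at the floor.

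miR-182-5p was detected at 24 hpf only. It had 0 reads in each of the 4 libraries of 6 and 11 hpf, and 49 and 82 reads in the 24 hpf libraries. The 24 hpf shares outside the miR-430 family were 0.278% and 0.3%, a mean of 0.289% ± 0.0156 (SD, n = 2), and the libraries differed 1.08-fold. This was the closest agreement between libraries of any member at any stage with reads in both. By the authors' RPM the 24 hpf libraries stood at 4.18 and 3.86. At 11 hpf the floor of 0.0334% and 0.0405% lay under the 24 hpf shares. miR-183-5p was above that floor in 11 hpf replicate 1 only.

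Between 24 and 6 hpf miR-182-5p rose at least 4.92-fold in its share outside the miR-430 family, computed against a floor of 3 reads in each 6 hpf library (edgeR adjusted p = 0.0453). In this comparison 8.7% of the 69 microRNAs tested passed with a higher level at 24 hpf. miR-182-5p was kept by the filter on low counts only through its 24 hpf reads, and without that filter the call was lost (edgeR adjusted p = 0.179). Leaving out any library of the stages compared ended the call, with edgeR adjusted p = 0.125 and 0.166 without 6 hpf replicates 1 and 2, and 0.279 and 0.264 without 24 hpf replicates 1 and 2. The replicate number as a term in the model (edgeR adjusted p = 0.195) and DESeq2 (adjusted p = 0.206) also ended it. Between 24 and 11 hpf the share at 24 hpf was higher by at least 7.83-fold on the same floor, without passing (edgeR adjusted p = 0.0805), in a comparison in which 0% of the 69 passed and 14 had an unadjusted p under 0.05. DESeq2 called 3 there, miR-182-5p not among them (adjusted p = 0.298). Between 11 and 6 hpf no fold can be given, since both stages had 0 reads. Because the cells were read in bulk, more cells with a microRNA and more of it per cell cannot be told apart.

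**Figure D2:**
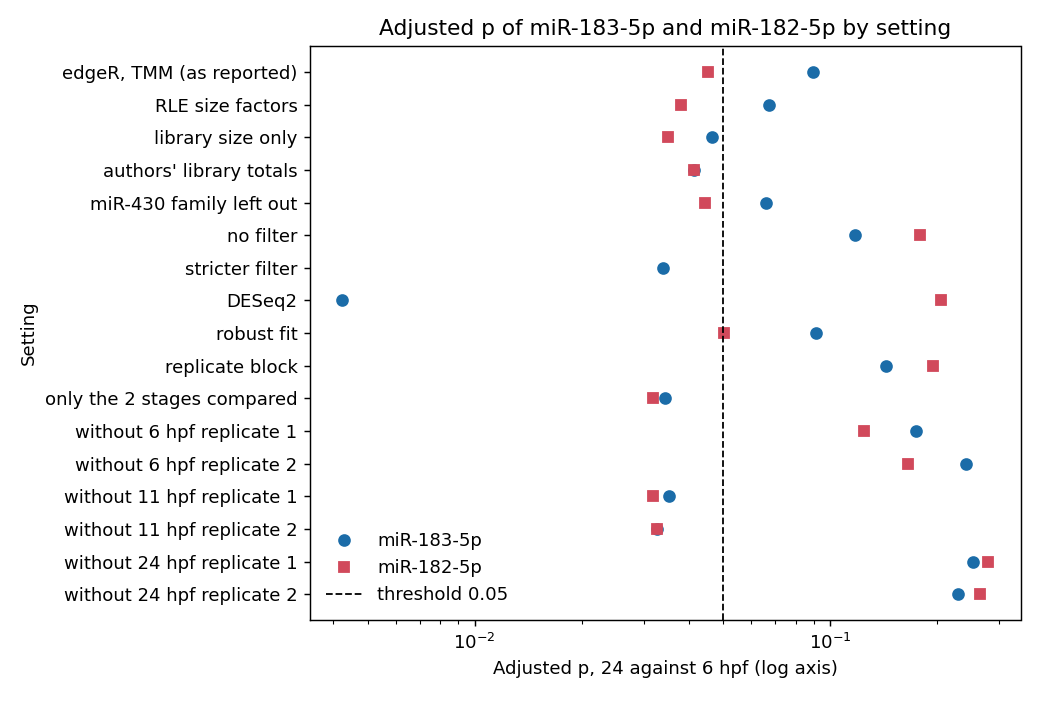
Adjusted p (x axis, log scale) of the 24 against 6 hpf difference in miR-183-5p (circles) and miR-182-5p (squares) under each processing setting (y axis). The dashed line marks 0.05. Values of both members lie on either side of it, from 0.0317 to 0.279 for miR-182-5p and from 0.00424 to 0.252 for miR-183-5p, and miR-182-5p has no value under the stricter filter.

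miR-96-5p, the member whose seed changes are linked to deafness, was the least abundant at 24 hpf, where it differed most between the libraries. It had 0 and 2 reads at 6 hpf, 3 and 4 at 11 hpf, and 26 and 1 at 24 hpf. Its shares outside the miR-430 family were 0.148% and 0.00366% in the 24 hpf libraries, 40.3-fold apart, and their intervals, 0.0965% to 0.216% and 9.28e-05% to 0.0204%, did not meet. The lower 24 hpf library lay below both 11 hpf libraries, which stood at 0.0334% and 0.054%. This member was not kept by the filter on low counts, and without that filter it did not pass in any comparison (edgeR adjusted p = 0.603, 0.903 and 0.979 for 24 against 6, 24 against 11 and 11 against 6 hpf). The pooled ratio of TMM-scaled reads between 24 and 11 hpf was 1.76 (95% counting interval 0.749 to 4.79) and turned to 0.106 without 24 hpf replicate 1. The level of miR-96-5p at 24 hpf therefore rests on 1 library. In the same pair of libraries 27 microRNAs had at least 10 reads in replicate 1 and at most 2 in replicate 2, and 8 had the opposite. The part of this imbalance in the miR-96-5p value was not tested.

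The proportions of the members to one another are given as a description, with intervals for counting error, and were not tested. At 24 hpf miR-183-5p made up 57.1% (exact 95% interval 49.5% to 64.6%) and 74.3% (69.2% to 79%) of the cluster's reads in replicates 1 and 2. miR-182-5p made up 28% (21.5% to 35.3%) and 25.4% (20.7% to 30.5%), which overlap. miR-96-5p made up 14.9% (9.94% to 21%) and 0.31% (0.00784% to 1.71%). The ratio of miR-183-5p to miR-182-5p was 2.04 (95% counting interval 1.44 to 2.93) and 2.93 (2.27 to 3.81) in these libraries. In 11 hpf replicate 1 the same ratio was at least 13.3, with 40 reads against 0. This rests on 1 library and on a count of 0, which can exceed counting error. There miR-182-5p held 0 of 43 cluster reads. This allows a share of up to 6.98% at the floor of 3 reads and 8.22% by the exact 95% interval. The other 11 hpf library had 3 reads of miR-183-5p and 4 of miR-96-5p, too few to place the proportion.

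**Figure D3:**
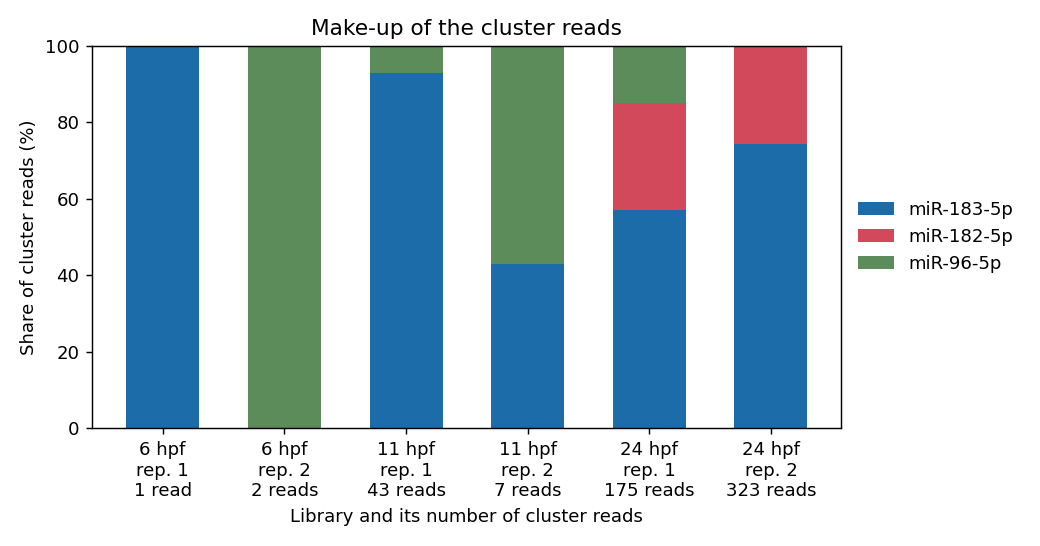
Share of the cluster's reads (%, y axis) taken by each member in each library, with the number of cluster reads under each bar (x axis). miR-183-5p takes 57.1% and 74.3% at 24 hpf, and miR-182-5p has no part of the 43 reads of 11 hpf replicate 1. The bars of 6 hpf and of 11 hpf replicate 2 rest on 7 reads or fewer.

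The microRNAs nearest to each tested member in pattern were found by the root mean square difference of centred log2 values over the 6 libraries, a description over libraries that share their depth and scaling. For miR-182-5p the nearest were miR-16c-5p at 0.35, miR-206-3p at 0.40, miR-10c-5p at 0.41, miR-210-5p at 0.41 and miR-140-3p at 0.59, where the median over the other 68 microRNAs was 2.30. miR-206-3p, a skeletal muscle microRNA, had 0 and 0, 1 and 0, and 51 and 50 reads at the 3 stages. miR-140-3p, a cartilage microRNA, had 3 and 1, 4 and 5, and 96 and 134. These 5 shared with miR-182-5p a count of 0 to 5 reads in every library before 24 hpf. Only microRNAs kept by the filter on low counts were ranked, and rows this low before 24 hpf were kept only through their 24 hpf reads. The small distances therefore follow largely from the filter and from counts at or near the floor.

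For miR-183-5p the nearest were miR-146b at 0.85, miR-222a-3p at 0.92, miR-206-3p at 1.25, miR-92b-3p at 1.31 and miR-140-3p at 1.35, with a median of 2.52. miR-146b, which acts in feedback on NF-kB signalling, had 0 and 0, 32 and 11, and 51 and 158 reads. miR-222a-3p had 0 and 1, 31 and 0, and 117 and 81, so it shared with miR-183-5p a high first and a low second library at 11 hpf. The other tested member of the cluster was not among the 5 nearest of either. miR-182-5p was the 7th nearest to miR-183-5p, and miR-183-5p the 11th nearest to miR-182-5p, at 1.46.

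**Figure D4:**
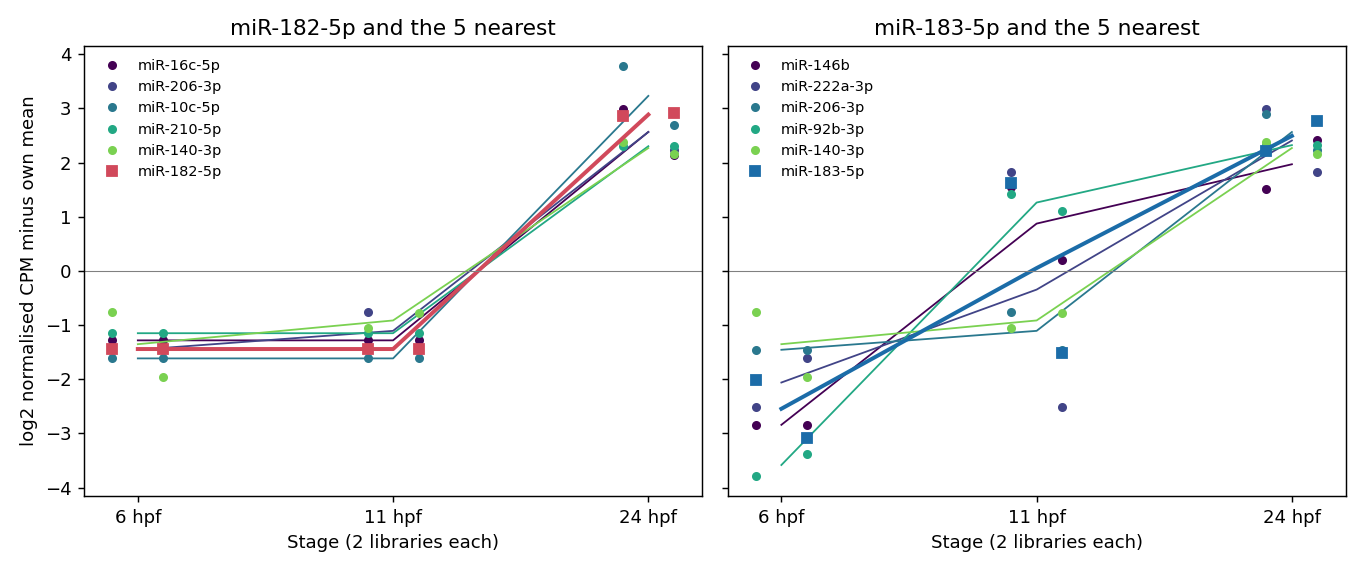
log2 normalised CPM (counts scaled to library size) minus each microRNA's own mean (y axis) by stage (x axis) for miR-182-5p (left) and miR-183-5p (right) with the 5 microRNAs nearest to each. Points are libraries and lines join stage means. The miR-182-5p group, with 0 to 5 reads in every library of 6 and 11 hpf, is at or near the floor there and high at 24 hpf. miR-183-5p is split between its 11 hpf libraries.

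microRNAs typical of sensory and neural cells and of other tissues were summed in the same libraries. The sensory and neural list had 15 names, of which 9 were present in 11 rows and 3 could be tested. None of these 3 passed in any comparison, where 12 (24 against 6 hpf), 0 (24 against 11 hpf) and 4 (11 against 6 hpf) of all 69 did, so their count says little about the list. Their median log2 ratio between 24 and 6 hpf was -1.29, against -0.36 over all 69 tested. In 1 of these 3 a 24 hpf count of 0 was set to the floor of 3 reads. The median leaves out the rows not tested, several of which had more reads at 24 hpf than before, mostly in 1 library. It therefore does not describe the list. The list's summed share outside the miR-430 family was 1.2% and 0.749% at 6 hpf, 0.735% and 0.675% at 11 hpf, and 0.841% and 0.399% at 24 hpf. The list's 24 hpf libraries overlapped with its earlier ones, unlike the cluster's. The most abundant were miR-7a, miR-34a and miR-9-4-3p. miR-7a had 24 and 30, 46 and 18, and 35 and 47 reads at the 3 stages, miR-34a had 7 to 12 in every library, and miR-9-4-3p had 42 in 24 hpf replicate 2 only. Of the neural microRNAs with few or no earlier reads, miR-124-3p had 32 and 0 reads at 24 hpf and miR-9-5p 18 and 2. Both had more reads in replicate 1, as did miR-128-3p (24 and 1), miR-218a (16 and 2), miR-153a-3p (8 and 0) and miR-96-5p. miR-9-4-3p and miR-204-5p (2 and 5) had the opposite. Over all microRNAs, 27 had at least 10 reads in replicate 1 and at most 2 in replicate 2, and 8 had the opposite. The imbalance was thus also seen outside the list. Whether it was more frequent within the list was not tested.

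The sensory epithelium and olfactory list, with 3 of 7 names present and 1 tested, lay below the cluster at 24 hpf. Its summed share was 0.108% and 0.066% there, against 0.406% and 0.982% at 6 hpf. miR-200b-3p, its most abundant member, had 3 and 56, 7 and 4, and 19 and 8 reads and did not pass (edgeR adjusted p = 0.256 between 24 and 6 hpf). miR-200a-3p had 15 and 3, 5 and 2, and 0 and 9 reads, and miR-429a at most 2 in a library. In the muscle list 3 of 4 names were present and neither of the 2 tested members passed, too few to read against the 8.7% of all tested that were higher at 24 than at 6 hpf. Its share was 0.226% and 0.166% at 6 hpf, 0.234% and 0.23% at 11 hpf, and 0.335% and 0.363% at 24 hpf, the highest stage. This list was the only one of the 6 with rows whose 24 hpf libraries both lay above all earlier ones. Of the single microRNAs tested, 31.9% had both 24 hpf libraries above both of 6 hpf, and 26.1% above both of 11 hpf. The list's 24 hpf share rests largely on miR-206-3p, at 0.29% and 0.183%. That microRNA had at most 1 read in any earlier library and was kept by the filter on low counts only through its 24 hpf reads. miR-206-3p did not pass between 24 and 6 hpf (edgeR adjusted p = 0.0614), and miR-1, also of muscle, was not higher at 24 hpf, with shares of 0.0454% and 0.0989% against 0.226% and 0.166% at 6 hpf. miR-499-5p, a heart and slow muscle microRNA, had 0 and 22 reads at 24 hpf and none before.

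In the mesenchyme and cartilage list 1 of 6 tested members was higher at 24 than at 6 hpf, miR-140-3p (edgeR adjusted p = 0.0453). Of all tested, 8.7% were, so that 1 of 6 is not a result about the list. miR-140-3p had at most 5 reads in any earlier library and was kept by the filter on low counts only through its 24 hpf reads. The list's summed share went from 6.39% and 6.24% at 6 hpf to 2.97% and 2.88% at 24 hpf. miR-143 and miR-199-5p, its most abundant members, had 218 and 366 and 169 and 178 reads at 24 hpf and did not pass. The blood and endothelium list stood between 0.0852% and 0.449% in the 6 libraries, with miR-126a-3p as its most abundant member. The liver and gut list had 0 reads in both 24 hpf libraries. The germ line name fixed for this check, miR-202, matched none of the 134 microRNAs analysed here. The label of the cells could therefore not be checked against it. The part of other cell types in the values of the cluster was not tested.

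**Figure D5:**
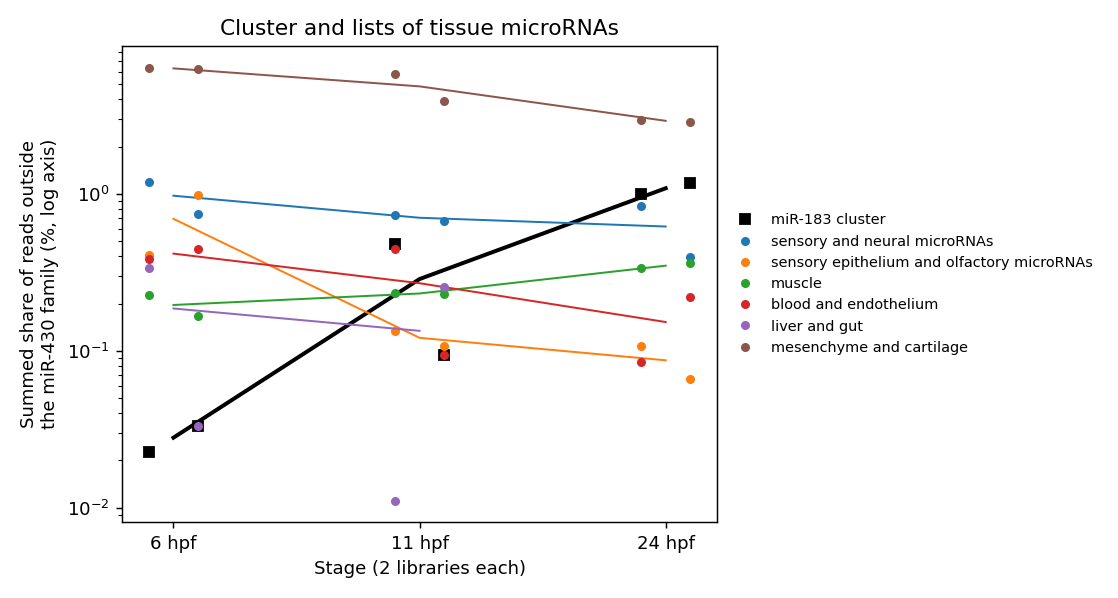
Summed share of reads outside the miR-430 family (%, y axis, log scale) by stage (x axis) for the miR-183 cluster and 6 lists of tissue microRNAs. Points are libraries and lines join stage means, and shares of 0 are not drawn. The cluster goes from 0.0226% and 0.0333% to 0.994% and 1.18%, while the sensory and neural list goes from 1.2% and 0.749% to 0.841% and 0.399%.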

How the data were processed

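Per the submitters' processing notes, Bowtie 1.0.0-5 and danRer11 were used. The rule for reads with several matches was not given in the sources used here. Per the file headers, the deposited table holds raw counts of reads per mature microRNA, whole numbers without normalization. The authors' RPM values in the same table are proportional to the counts within a library and imply totals of 9019179 to 21230244 reads. No column came from another series.

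The test was edgeR 4.0.16 (R 4.3.3): filterByExpr with a minimum count of 10 (69 of 134 kept), TMM scaling, and the quasi-likelihood fit with default options on all 6 libraries, stage as the only term, and Benjamini-Hochberg adjustment over the 69. An adjusted p under 0.05 was called a change. The standard error was the log2 difference divided by the square root of F. Folds against a stage with 0 reads are lower bounds on the share outside the miR-430 family, against 3 reads in each library. These bounds do not cover counting error. The floor per library was chosen after seeing the data in place of 3 reads over the stage. Ratios of pooled normalised reads have exact 95% counting intervals (SciPy 1.17.1). Centred log2 values used a prior count of 2. Named microRNAs were the members, the 5 nearest to each tested member, and up to 3 of each list by total reads. miR-124-3p, miR-9-5p, miR-128-3p, miR-218a, miR-153a-3p and miR-204-5p were chosen after their values were seen. The members, lists and the form of the fit were chosen with earlier results of these data known. Alternatives covered scaling, filters, DESeq2 1.42.0, the robust fit, the replicate number, fits of 2 stages, and leaving out each library. The scripts were tested on simulated data. The reference tables are of another assembly (GRCz12tu) and gave gene order only. Figures were drawn with matplotlib 3.10.9.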

Additional observations from a re-analysis of the deposited data

How the results depend on the processing

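Between 24 and 6 hpf the call on miR-182-5p held in 7 of 15 alternative settings. It was lost with no filter (adjusted p = 0.179), with DESeq2 (0.206), in the robust fit (0.0502) and with the replicate block (0.195), and leaving out 1 library gave edgeR adjusted p-values from 0.0318 to 0.279. Under the stricter filter it was not tested. miR-183-5p, not called, passed in 7 of 16 settings: library size only (edgeR adjusted p = 0.0467), the authors' library totals (0.0414), the stricter filter (0.0339), DESeq2 (0.00424), the fit of only those 2 stages (0.0343), and without either 11 hpf library, in a range from 0.0325 to 0.252 over the libraries left out. The stricter filter asked for a stage mean of 100 reads, which miR-183-5p reached at 24 hpf only. Neither member was called in any setting between 24 and 11 hpf, nor miR-183-5p between 11 and 6 hpf. The later stage was higher in every setting for both. The labels tie same-numbered libraries by number only. Their deviations correlated at 0.14, 0.06 and -0.24 over 69 microRNAs, and whether they shared a collection was not tested. The replicate block moved the calls between 24 and 6 hpf from 12 to 4, with edgeR adjusted p = 0.144 for miR-183-5p.

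The ratio of the cluster's mean shares between 24 and 6 hpf was 39. It was 113 over all microRNA reads, 116 over the authors' library totals and 60.5 outside miR-430, miR-26a and miR-92. Between 24 and 11 hpf it was 3.8, with 7.97 over the authors' totals and from 2.27 to 11.5 with a library left out, the highest without 11 hpf replicate 1. Between 11 and 6 hpf it was 10.3, from 3.38 to 17.1 with a library left out. The ratio of miR-96-5p between 24 and 11 hpf reversed to 0.106 without 24 hpf replicate 1 and was 4.44 without replicate 2. The median log2 difference of all tested microRNAs between 24 and 6 hpf was -0.36 with TMM and 0.88 with the authors' totals, and between 24 and 11 hpf -0.08 and 0.42. Relative to the latter medians miR-183-5p stood at 1.90 and 2.22. Calls over all microRNAs between 24 and 6 hpf ranged from 0 to 28 against 12, between 24 and 11 hpf from 0 to 8 against 0, and between 11 and 6 hpf from 0 to 7 against 4. Where not stated, the cause was not tested. Depth limits the 6 hpf values most, where the cluster had 3 reads in all.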

Other observations

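Of the 134 microRNAs, 24 had reads at 24 hpf only. The 24 hpf libraries were also the deepest, with 17602 and 27293 reads outside the miR-430 family against 4429 to 8983 in the earlier ones. The part of depth in this count was not tested. miR-182-5p was 1 of the 4 among them with at least 10 reads in both 24 hpf libraries, with miR-10c-5p (107 and 79 reads), of a Hox-cluster family, miR-16c-5p (48 and 41) and miR-210-5p (26 and 42). Another 17 had at least 10 reads in only 1 of the 24 hpf libraries, 15 of them in replicate 1. These counts were made after the values had been seen.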
